A study of Mus musculus with 33 samples.

Results

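The cells described here are those that carried no niche tag. SAMENT is a niche labelling method in which injected tumour cells carry an enzyme that, once its substrate is given, tags the cells around them with biotin, so that a sort on biotin separates tagged neighbours from untagged cells of the same organ. Of the 33 single-cell samples in the series, 16 were chosen by their labels alone: those that were biotin negative and came from intracardiac injection. They comprise 4 samples each of bone (femurs and tibias), brain, liver and lung, numbered 1 to 4, and hold 38209 kept cells of 38806 cell barcodes. All 16 samples shared the same handling: injection into the heart, about 10 h of substrate labelling overnight, mincing and collagenase digestion, lysis of red cells where these were present, the sort, CellPlex multiplexing and 3' end sequencing. The tumour line and the mouse strain were not given in the labels, and the labels do not say whether samples of one number came from one mouse, so p-values measure only the spread between these samples. The comparison asks how untagged cells of bone differed from untagged cells of the other organs that intracardiac injection reaches, with bone set against the mean of brain, liver and lung.

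Bone marrow is where neutrophils, monocytes, B cells and red cells are made. Granulocyte precursors divide there and fill their granules in order, with primary granules (elastase, myeloperoxidase) first, secondary granules (lactoferrin, cathelicidin) in cells that have stopped dividing, and tertiary granules last, before mature cells pass into blood and are carried to organs such as lung and liver. Mature neutrophils in tissues can switch on immediate early genes and NF-kB targets within hours, among them chemokines that call in more neutrophils. Digestion of tissue into single cells is also known to switch on immediate early genes.

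Promoters of gene groups that moved together are shown first, because the letters they share can be read beside the values given later. The sequences are from the RefSeq promoter table for GRCm38.p6, from 250 bases before to 50 after each gene's start, 5′ to 3′ on the gene's strand. These 5 were chosen because they hold the letters searched for, and a match is a description, not a shown binding site. Among 27025 promoters, CCAAT was in 37.9% and TTTGAA, the cell cycle homology region, in 18.1%, with both strands searched. Of the 22 mitosis genes, 19 had a promoter in the table, and 17 of these (89.5%) held CCAAT and 14 (73.7%) held TTTGAA. Cdk1, the kinase that starts mitosis (chr10:69352863-69353162, minus strand), and Ube2c, a ubiquitin-conjugating enzyme of the anaphase-promoting complex (chr2:164769679-164769978, plus strand), are shown with both motifs, on either strand, in capitals. Ube2c holds CCAATTGG, in which CCAAT lies on both strands and overlaps itself.
Cdk1: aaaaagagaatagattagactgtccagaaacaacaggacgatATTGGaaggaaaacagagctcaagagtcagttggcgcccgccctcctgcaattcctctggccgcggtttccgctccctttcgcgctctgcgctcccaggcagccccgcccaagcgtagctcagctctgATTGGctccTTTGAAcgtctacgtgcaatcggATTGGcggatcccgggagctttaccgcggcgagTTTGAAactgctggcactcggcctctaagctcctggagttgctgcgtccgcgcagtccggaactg
Ube2c: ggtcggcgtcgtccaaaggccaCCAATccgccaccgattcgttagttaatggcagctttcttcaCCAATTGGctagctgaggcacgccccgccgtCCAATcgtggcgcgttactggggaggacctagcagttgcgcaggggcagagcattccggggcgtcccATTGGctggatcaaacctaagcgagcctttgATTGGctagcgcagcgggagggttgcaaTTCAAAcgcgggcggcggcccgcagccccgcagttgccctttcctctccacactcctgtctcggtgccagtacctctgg

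Genes of the inflammatory list carried a different motif. An NF-kB site was in 9 of 22 promoters of that list (40.9%: Cxcl2, Cxcl3, Nfkbia, Csf1, Ccrl2, Sod2, Tnfaip3, Vegfa and Nfkb2), against 8.18% of all promoters. Cxcl2, a chemokine that attracts neutrophils (chr5:90903649-90903948, plus strand), is shown with 2 overlapping matches in capitals. The cyclic AMP response element TGACGTCA was in 2 of 18 immediate early promoters (11.1%: Dusp1 and Btg2), against 1.88% of all. Btg2, an anti-proliferative gene (chr1:134079106-134079405, minus strand), is shown with it in capitals. The CArG box was in 1 of the 18 (Zfp36), or 5.56%, against 1.57% of all. The C/EBP letters TTGCNNAA were in 5 of 12 secondary granule promoters (41.7%: Ltf, Ngp, Lcn2, Mmp8 and Fcnb) and in 1 of 8 primary granule promoters (12.5%: Ms4a3), against 10.8% of all. Fcnb, a ficolin of granulocyte precursors (chr2:28084829-28085128, minus strand), is shown with its 2 matches in capitals.
Cxcl2: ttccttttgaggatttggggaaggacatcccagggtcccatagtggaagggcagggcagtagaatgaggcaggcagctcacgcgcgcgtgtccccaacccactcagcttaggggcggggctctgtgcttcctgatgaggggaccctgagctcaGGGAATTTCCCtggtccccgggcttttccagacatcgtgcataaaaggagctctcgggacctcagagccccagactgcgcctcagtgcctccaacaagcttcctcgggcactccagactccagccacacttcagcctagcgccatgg
Btg2: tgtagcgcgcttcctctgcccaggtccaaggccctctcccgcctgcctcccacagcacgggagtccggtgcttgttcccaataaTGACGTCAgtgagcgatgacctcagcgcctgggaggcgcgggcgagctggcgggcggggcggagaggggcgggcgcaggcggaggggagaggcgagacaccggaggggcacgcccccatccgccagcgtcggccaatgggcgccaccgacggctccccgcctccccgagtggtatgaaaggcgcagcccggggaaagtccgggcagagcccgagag
Fcnb: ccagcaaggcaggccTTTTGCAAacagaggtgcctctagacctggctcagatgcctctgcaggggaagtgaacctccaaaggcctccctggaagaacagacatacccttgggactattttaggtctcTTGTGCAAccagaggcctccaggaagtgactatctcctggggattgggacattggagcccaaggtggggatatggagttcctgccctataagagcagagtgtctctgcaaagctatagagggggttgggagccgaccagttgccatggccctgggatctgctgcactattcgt

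Depth differed between organs. Kept cells had at least 500 gene UMIs and 200 genes, and at most 15% of UMIs from mitochondrial genes; 1.54% of barcodes were removed, and each sample kept 1098 to 3505 cells. Bone samples summed to 21117526 to 44834665 UMIs, brain to 5285121 to 28669642, liver to 6385858 to 19829143 and lung to 9589559 to 15170122. The median UMIs per cell were 5977 to 8913 in bone, 3698 to 7214 in brain, 3246 to 5251 in liver and 3135 to 3837 in lung, and mitochondrial UMIs took 0.501% to 3.27%. No cell barcode was shared between samples of one number, while 171 were shared over the 96 pairs of samples of different numbers, at most 7 in a pair. Markers of each organ's own tissue cells were low: summed osteoblast markers reached 7.81 CPM (counts per 1e6 of a sample's total after TMM scaling) in bone with 3 of 6 at 0, hepatocyte markers 5.80 in liver, neuron markers 1.86 and astrocyte markers 9.28 in brain, lung epithelial markers 11.1 in lung. Microglial markers were at 127.9 to 158.2 CPM in brain and 77.0 to 207.0 in bone. All named classes other than endothelial cells were blood and immune cells. Brain libraries 1 and 4 stood apart from brain 2 and 3 by their many precursor and immature granulocytes, given next. Whether these cells came from brain tissue, residual blood, skull marrow or a mix-up of libraries was not tested, so brain values and both contrasts that use them describe the libraries as labelled. The main shares, counts and genes that rest on brain 1 and 4 are given with and without them. Leaving them out was decided after their values were seen.

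Untagged bone cells were distinguished by young granulocytes. Neutrophil precursors and immature neutrophils took larger shares of cells in bone than in the other organs, while the share of mature neutrophils did not pass the test. Cells that no marker list named, 1506 of them in a cluster led by C1q complement and MHC class II genes, took a smaller share in bone at the clustering used. Cells were clustered and classes named from marker genes, so the granule and cell cycle genes that define a stage are not separate evidence beside its share. Of 12 class shares tested, 3 passed an exact two-sided permutation test over the 16 samples (smallest possible p 5.49e-04) after adjustment over the 12. These were precursors, immature neutrophils and unnamed cells. Without brain 1 and 4 the 3 differences were 13.7, 18.9 and -7.25 points (adjusted p = 0.00599, 0.00599 and 0.0360, exact permutation test). Brain 1 and 4 were left out after their high precursor and immature shares were seen. The lower p-values for precursors and immature neutrophils follow in part from that choice and are not a further test of the 3 differences. With organs permuted only within replicate numbers, none of the 3 passed (adjusted p = 0.0820, 0.0703 and 0.0703, exact permutation test). Within numbers, bone had the highest share of precursors in 3 of 4, the highest share of immature cells in 3 of 4 and the lowest share of unnamed cells in 3 of 4.

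Granulocyte precursors, the dividing cells that express Elane and Mpo, took 6.92%, 12.9%, 21.2% and 17.7% of kept cells in bone 1 to 4. In brain 1 to 4 they took 19.8%, 0.755%, 2.37% and 8.93%, in liver 0.602% to 2.68% and in lung 0.0397% to 0.487%. Brain 1 overlapped with bone, brain 4 exceeded bone 1, and every liver and lung sample lay below every bone sample. The mean share was 14.7% ± 6.21 (SD, n = 4) in bone and 3.25% ± 5.76 (SD, n = 12) elsewhere, which is 11.4 percentage points apart (p = 0.00989 and adjusted p = 0.0396, exact permutation test). As a share of named cells alone the difference was also 11.4 points and did not pass (adjusted p = 0.0659, exact permutation test). Of the 2517 precursors, 1297 were in a cluster led by histone genes, Stmn1 and Top2a as well as Ctsg, Mpo, Prtn3 and Elane. At resolution 2.0 a cluster of 928 cells took the precursor name with 0 of its markers among the first 10 genes. Immature neutrophils, which have stopped dividing and carry secondary granules, took 7.02%, 25.8%, 21.0% and 28.4% in bone. They took 10.1%, 2.47%, 1.00% and 18.6% in brain, 0.193% to 6.47% in liver and 0% to 0.552% in lung. Bone 1 lay below brain 1 and brain 4, and bone 2, 3 and 4 lay above all other samples. The means were 20.5% ± 9.51 (SD, n = 4) and 3.73% ± 5.61 (SD, n = 12), a difference of 16.8 points (exact permutation p = 0.00220, adjusted p = 0.0264). Both differences lost the adjusted threshold when bone 2, bone 3 or bone 4 was left out, at 9.27 to 12 points for precursors and 14.2 to 16.6 points for immature cells.

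Mature neutrophils took 12.4%, 23.7%, 30.2% and 42.7% in bone, with means of 27.2% ± 12.6 (SD, n = 4) in bone and 31.2% ± 20.3 (SD, n = 12) elsewhere, a difference of -3.96 points (exact permutation p = 0.726). The stages made up the lineage in different proportions. Within the neutrophil lineage of bone, 24.1% ± 4.49 of cells were precursors, 32.2% ± 6.45 immature and 43.7% ± 4.73 mature (SD, n = 4). In lung 97.8% to 99.4% of lineage cells were mature, in liver 71.0% to 97.3%, and in brain 20.5% to 94.3%. Bone and brain overlapped in this measure, and bone overlapped with neither liver nor lung. The whole lineage took 26.4%, 62.3%, 72.4% and 88.8% of bone cells, 24.3 points above the other organs on average, and did not pass (exact permutation p = 0.0802, adjusted p = 0.174).

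Monocytes, B cells, T cells, NK cells and plasmacytoid dendritic cells did not pass the test. Monocytes took 31.5%, 16.9%, 12.3% and 5.45% of bone cells, -2.55 points from the other organs (exact permutation p = 0.665). B cells took 13.4%, 10.2%, 6.26% and 1.83%, T cells 12%, 5.84%, 3.27% and 1.74%, and NK cells 3.11%, 1.01%, 0.491% and 0.285%, with differences of -5.63, -7.48 and -2.69 points. In each of these 4 classes bone 1 had the largest share and bone 4 the smallest, and these were the bone samples with the smallest and largest share of neutrophil lineage cells. Shares of one whole trade against each other. Plasmacytoid dendritic cells, the interferon-producing cells of marrow and blood, took 7.60%, 1.98%, 1.23% and 0.571% in bone, 1.85 points above the others (exact permutation p = 0.0780, adjusted p = 0.174), and 0.268 points above them without bone 1. Unnamed clusters took 5.64%, 1.56%, 2.94% and 0.742% in bone and 4.66% to 15.3% elsewhere, a difference of -6.89 points (exact permutation p = 0.00824, adjusted p = 0.0396). This difference also lost the adjusted threshold without bone 2, bone 3 or bone 4, at -6.96 to -6.23 points. With finer clusters (resolution 2.0), where clusters of 860 and 675 cells met the marker rule for dendritic cells and macrophages, the unnamed difference was -1.69 points and did not pass (adjusted p = 0.514, exact permutation test).

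**Figure D1:**
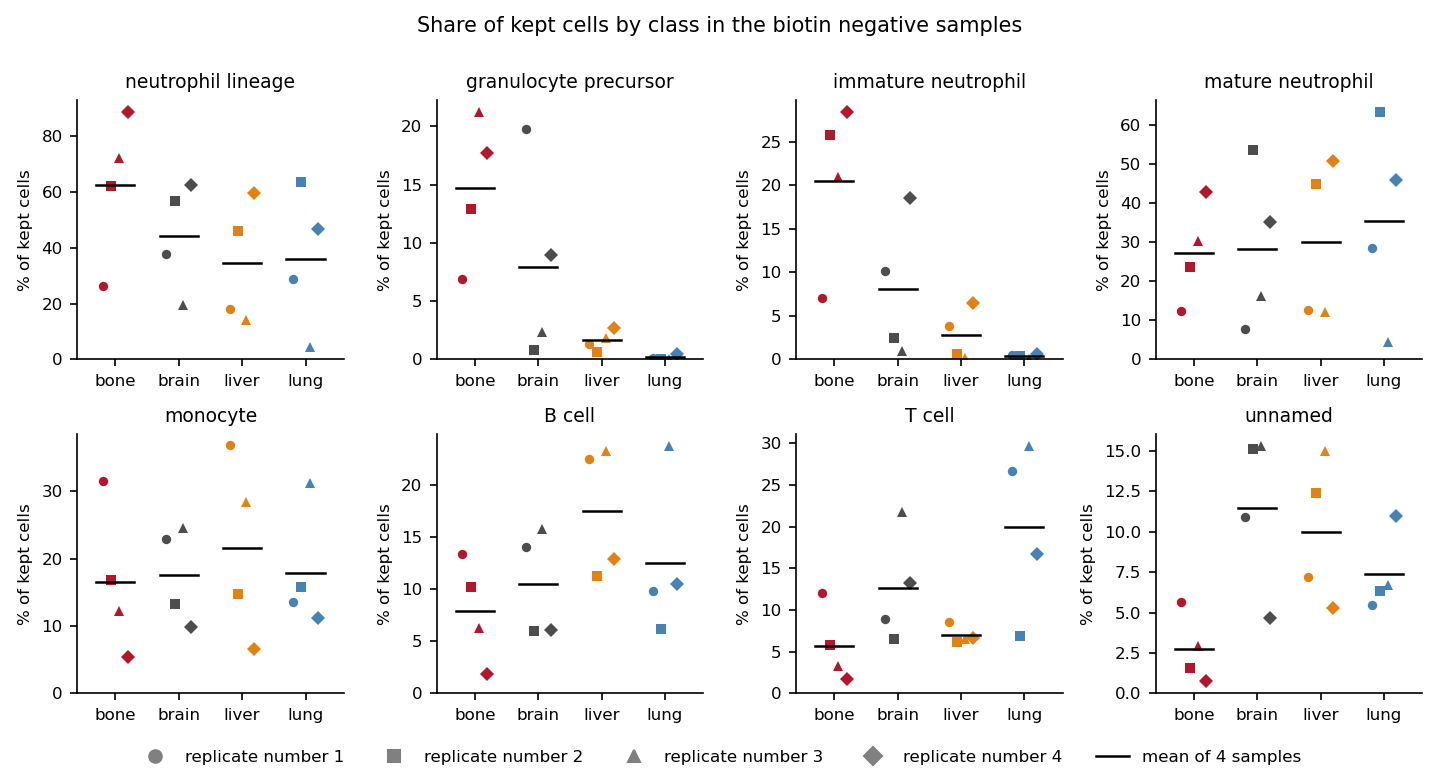
Percent of kept cells in 8 classes (y axes) for each of the 16 biotin negative samples by organ (x axes), with 1 symbol per replicate number and a bar at the mean of 4. Precursors reach 21.2% in bone and 0.487% in lung, and brain samples 1 and 4 stand above brain 2 and 3 in the precursor and immature panels.

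Summed over all kept cells, bone expressed more cell division and granule genes and less of MHC class II, NF-kB target and immediate early genes. All 22 mitosis genes and 21 of 22 DNA replication genes were higher in bone, 6 of 9 primary and 6 of 13 secondary granule genes were higher, and none of these 4 lists had a member lower. All 10 MHC class II genes, 19 of 28 NF-kB and inflammatory genes and 19 of 22 immediate early and stress genes were lower, and none was higher. In sums of this kind, fewer cells of a type and less RNA per cell cannot be told apart. By edgeR's quasi-likelihood test, 2166 of 13096 genes (16.5%) passed an adjusted p of 0.05, 1294 of them (9.88%) higher in bone and 872 (6.66%) lower, and list counts are to be read against these shares. The median log2 difference over all genes tested was -0.01. Of the genes called, 1136 of the 1294 and 853 of the 872 had the same direction within all 4 replicate numbers. The count rested on the bone libraries: it was 3429 without bone 1, 856 without bone 2, 444 without bone 3 and 366 without bone 4. With the replicate block it was 4849. With cells thinned to 1000 UMIs and shallower cells left out it was 438. The cells left out numbered 9 in brain 2, the fewest, to 118 in liver 4, the most.

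Among primary granule genes, which had a median log2 difference of 2.53, the largest difference was that of Elane. Elane, neutrophil elastase, was at 268.7, 1049, 1645 and 1880 CPM in bone 1 to 4, and at 9.56 (lung 1), a median of 57.3 and 1364 (brain 1) elsewhere. Bone 1 and 2 lay below brain 1, and bone 3 and 4 above every other sample. The difference was 10.5-fold (log2 3.40 ± 0.70 SE, edgeR adjusted p = 0.00797). Ctsg (cathepsin G), Ms4a3, Mpo (myeloperoxidase), Prtn3 (proteinase 3) and Serpinb1a, an inhibitor of these proteases, were higher by log2 3.35, 3.30, 3.02, 2.53 and 2.18. Lyz2, Ctsc and Srgn, which mature myeloid cells also express, were at 0.07, -0.59 and -1.13 and did not pass.

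Secondary granule genes had a median of 1.51. Camp, the cathelicidin precursor, was at 3603, 17784, 15749 and 25108 CPM in bone and at 157.0 (lung 3), a median of 1017 and 14843 (brain 4) elsewhere, log2 3.09 ± 0.68 (SE, edgeR adjusted p = 0.0107). Bone 1 fell within the range of the other organs and bone 2, 3 and 4 above it. Fcnb, Ngp, Ltf (lactoferrin), Cd177 and Cybb, the oxidase subunit, were higher by 2.95, 2.44, 2.41, 1.54 and 0.72. Lcn2 (1.51), Olfm4 (1.69) and Pglyrp1 (1.27) had differences of similar size that did not pass, as did Chil3, Hp, Cyba and Mmp8 at 0.09 to 0.72. None of 17 tertiary granule and late maturation genes passed, with a median of -0.05, while 2 were higher and 1 lower without brain 1 and 4 (median -0.13), with the replicate block, and against lung alone. Among 14 myeloid transcription factors, Cebpe, which drives the secondary granule programme, was at 37.5, 151.2, 198.1 and 400.8 CPM in bone against 5.15 to 211.0 (brain 4) elsewhere, log2 2.60 ± 0.70 (SE, edgeR adjusted p = 0.0245). Only bone 4 lay above brain 4. Gfi1, a repressor needed for granulocyte development, was higher by 1.5, while those lower included Cebpb (-1.33) and Nfil3 (-1.47).

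Cell division genes had medians of 2.49 (mitosis) and 1.68 (replication). Nusap1, a spindle protein, was at 59.6, 122.2, 149.7 and 146.3 CPM in bone and at 3.02, a median of 12.9 and 83.4 (brain 1) elsewhere, log2 2.78 ± 0.39 (SE, edgeR adjusted p = 0.00241). Ccnb1, the cyclin partner of Cdk1, was at 25.8, 54.1, 59.3 and 77.5 CPM against 1.47 (lung 1), 6.52 and 37.5 (brain 1), 6.78-fold higher (log2 2.76 ± 0.36 SE, edgeR adjusted p = 0.00241). For both genes bone 1 lay below brain 1 and the other bone samples above every other sample. Rrm2, the regulated subunit of ribonucleotide reductase, was at 47.6, 103.8, 123.3 and 152.1 CPM against 2.65 (lung 2), 10.6 and 108.5 (brain 4), log2 2.55 ± 0.48 (SE, edgeR adjusted p = 0.00595). Cdk1 and Ube2c, whose promoters are printed above, were higher by 2.67 and 2.70. The smallest mitosis differences were those of Kif23 (1.14), Hmgb2 (1.43) and Cenpa (1.46). Cdt1 (0.48), which licenses replication origins, was the 1 replication gene that did not pass.

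Genes of other marrow lineages gave less. Of 13 stem and progenitor genes tested, Myb (2.07) and Cdk6 (0.99) were higher. Of 11 erythroid and haem genes tested among 20 listed, those higher included Hba-a1 (3.73) and Tfrc, the transferrin receptor (0.85), and none was lower. Hba-a1 globin was at 0.873, 53.7, 0.345 and 0.174 CPM in bone and at 0, a median of 0.338 and 18.6 (liver 2) elsewhere. Bone 2 alone was high, and without it the log2 difference was -1.16; Hba-a1 and Hba-a2 are near-identical and the split of reads between them is uncertain. Of 11 B lymphopoiesis genes tested among 16, Il7r, a cytokine receptor that T cells also carry, was lower (-1.71) and none was higher. Of 21 hypoxia and glycolysis genes, Pgam1 was higher (0.68) and Adm (-3.04) and P4ha1 (-0.96) were lower.

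MHC class II genes, which present antigen on B cells, macrophages and dendritic cells, had a median of -1.81. H2-Ab1 was at 222.5, 92.0, 88.9 and 37.7 CPM in bone and at 245.1 (brain 4), a median of 586.5 and 891.0 (brain 2) elsewhere. The bone samples lay below all 12 others, 5.24 times lower on average (log2 -2.39 ± 0.45 SE, edgeR adjusted p = 0.00623). H2-Eb1, H2-Aa, Cd74, the invariant chain, and Ciita, the transactivator of the group, were at -2.57, -2.29, -2.09 and -1.90. Summed markers of macrophages, which carry these genes, were at 325.8 to 1026 CPM in bone against 560.8 to 4484 in brain, 912.8 to 3162 in liver and 1099 to 2926 in lung, with overlap. Summed B cell markers also overlapped, at 312.8 to 2444 CPM in bone and 279.5 to 4709 elsewhere. Dendritic cell markers summed to 126.0 to 551.1 CPM in bone, below the 558.7 to 2067 in brain, 1090 to 1809 in liver and 905.6 to 1606 in lung, but 3 of these 15 markers are MHC class II genes. The other 12 summed to 50.3 to 134.3 CPM in bone, 79.7 to 293.0 in brain, 112.6 to 189.4 in liver and 130.2 to 265.8 in lung, with overlap. Unnamed cluster 7, which C1q and MHC class II genes themselves lead, took 0.428% to 1.69% of cells in bone, 3.96% to 14.5% in brain, 2.29% to 8.10% in liver and 1.88% to 5.26% in lung, without overlap. The part of these cells in the MHC class II result was not tested.

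Immediate early and stress genes, the first wave of transcription after a stimulus, had a median of -1.79. Fos was at 362.9, 526.0, 290.9 and 349.8 CPM in bone and at 615.5 (lung 1), a median of 1713 and 2043 (lung 4) elsewhere, 4.04 times lower (log2 -2.01 ± 0.34 SE, edgeR adjusted p = 0.00409). Atf3, a stress-induced factor, was at 36.7, 29.1, 33.2 and 15.1 CPM against 115.9 (liver 1), 207.1 and 636.4 (brain 3), 9.20 times lower (log2 -3.20 ± 0.53 SE, edgeR adjusted p = 0.00381). Ppp1r15a, which ends the integrated stress response and is not in the list, was at 39.4, 29.8, 21.1 and 16.4 CPM against 58.1 (brain 4), 145.6 and 246.3, log2 -2.41 ± 0.35 (SE, edgeR adjusted p = 0.00241). In all 3 genes every bone sample lay below every other sample. Hspa1a and Hspa1b, a near-identical pair of inducible chaperone genes whose reads may be split between them, were at -4.03 and -3.78. Ier2 (-0.82), Klf4 (-0.44) and Hsp90aa1 (0.32) did not pass.

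NF-kB targets and inflammatory genes had a median of -1.65. Ccl3, a chemokine for monocytes and T cells, was at 41.8, 44.8, 33.1 and 24.8 CPM in bone and at 72.9 (liver 1), a median of 180.9 and 412.3 (lung 4) elsewhere, 5.54 times lower with no overlap (log2 -2.47 ± 0.35 SE, edgeR adjusted p = 0.00241). Cxcl2 was at 316.3, 871.0, 522.1 and 617.2 CPM against 365.1 (brain 1), 5179 and 16798 (lung 2), 10.7 times lower (log2 -3.42 ± 0.75 SE, edgeR adjusted p = 0.0105). Brain 1 was the sample that overlapped with bone. Cxcl3, Ccrl2, Il1b, Acod1 and Ptgs2 were at -4.0, -2.78, -2.77, -2.43 and -2.34, and Nfkbia, the inhibitor that NF-kB itself induces, at -1.53. Tnf (-1.04), Il1a, Il1rn, Clec4e and Nlrp3 did not pass.

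Some genes of lymphocytes were lower in bone. Of 20 T and NK effector genes, Ifng (-3.20), Itgae (-2.35), Gzmb (-2.29), Ccl5 (-1.95) and Cd69 (-1.63) were lower and none higher, with a list median of -1.39. Gzmb, granzyme B, was at 9.26, 6.89, 3.50 and 1.16 CPM in bone and 4.14, a median of 23.1 and 116.6 (lung 1) elsewhere, with overlap. Of 14 genes in the trafficking receptor list, 6 were lower (Ccr6, Klf2, S1pr1, Gpr183, Itga4 and Itgal), with a median of -0.88. Klf2 is a transcription factor, and it was also lower in mature neutrophils alone, given below. Summed T cell markers were at 79.8 to 496.2 CPM in bone, 236.9 to 492.7 in brain, 289.6 to 365.0 in liver and 339.3 to 1526 in lung. Summed NK cell markers were at 174.5 to 399.1 CPM in bone, 125.5 to 348.2 in brain, 365.6 to 644.6 in liver and 130.8 to 2369 in lung, and the part of these cells was not tested. Of 21 interferon-stimulated genes tested among 22, Gbp2 (-1.31) was lower, and 6 were lower without brain 1 and 4 and 7 with the replicate block. Of 9 niche factor genes tested among 11, Spp1 (-2.25) was lower.

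Across all genes, 31 (0.237%) lay above every other sample in all 4 bone samples and 79 (0.603%) below. With a mean of at least 20 CPM and an adjusted p under 0.05, only 4 of the former remained, all small in size: Nucb2 (log2 0.69, edgeR adjusted p = 0.0111), Zfp217 (0.54, 0.00817), Ctbp1 (0.37, 0.0164) and Brd7 (0.37, 0.0378). Zfp217, a zinc finger protein, was at 27.3, 30.5, 30.3 and 35.4 CPM in bone against 14.9, 22.0 and 26.7 (liver 4). Elane, Ctsg, Nusap1, Ccnb1 and Rrm2 are not among them, since brain 1 and brain 4 reached the bone range, nor are Camp, Ngp, Ltf, Cebpe and Fcnb, which liver 4 also reached. Of 27 such genes below, the 12 lowest included Atf3, Hes1, a Notch target (-2.84), Rgs1 (-2.74), Rora, a nuclear receptor of innate lymphocytes and T cells (-2.63), Egr1 (-2.63), H2-Eb1, Plk2 (-2.50), Ccl3, Ppp1r15a and H2-Ab1. Rora was at 7.48, 4.38, 3.15 and 1.25 CPM in bone and at 8.16 (brain 1), 17.7 and 77.4 elsewhere.

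**Figure D2:**
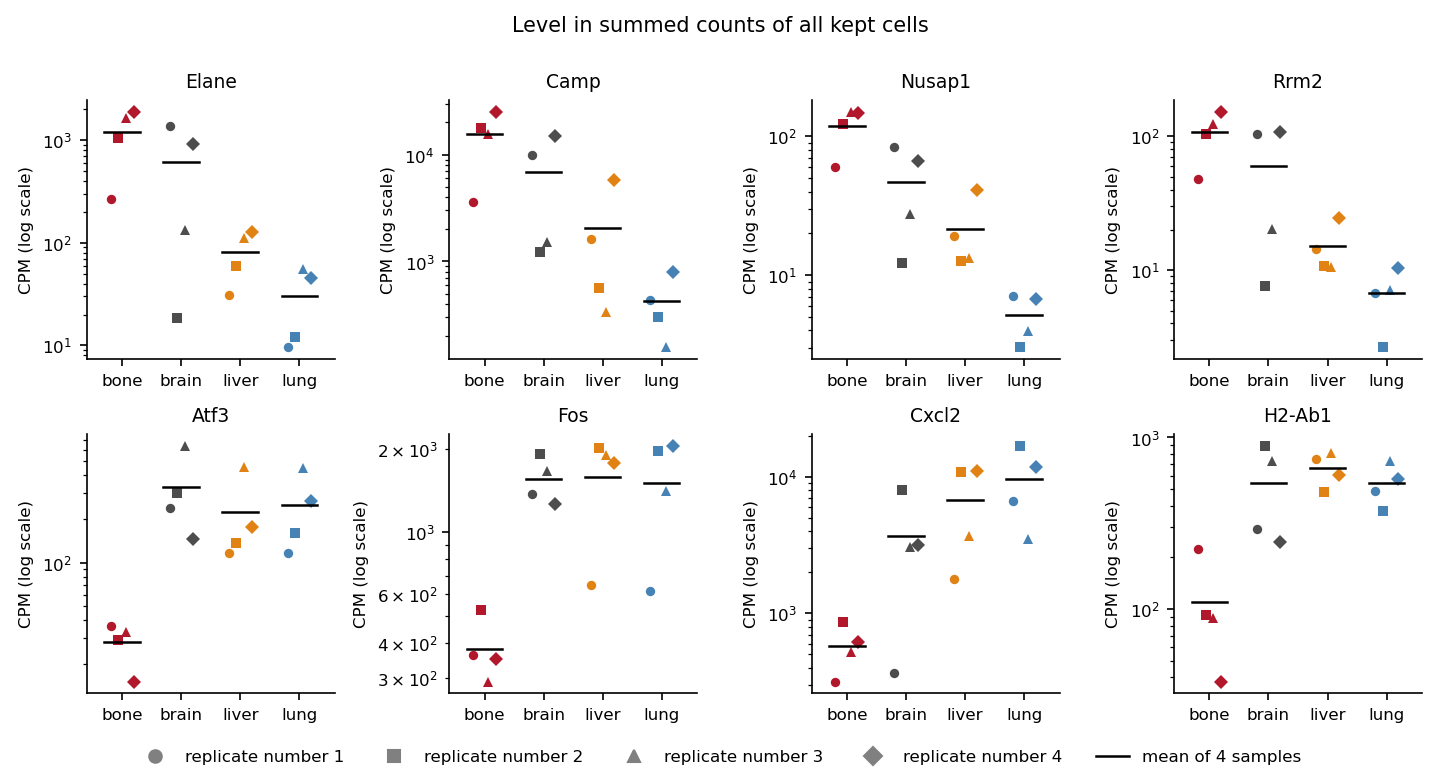
Level in CPM on a log axis (y) of 8 genes in all kept cells of each sample, by organ (x), with 1 symbol per replicate number and a bar at the mean of 4. Atf3, Fos and H2-Ab1 lie lower in all 4 bone samples than in the other 12, while for Elane, Camp, Nusap1 and Rrm2 brain 1 and brain 4 reach the bone range.

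In 11 of 17 lists the median kept 1 sign within all 4 replicate numbers, among them the 5 given here. For numbers 1 to 4, the median log2 difference of mitosis genes was 1.32, 3.28, 3.39 and 2.13, and that of primary granule genes 0.88, 3.85, 3.24 and 2.63. For immediate early genes it was -1.09, -1.88, -1.84 and -1.91, for NF-kB genes -0.87, -1.85, -1.54 and -1.91, and for MHC class II genes -0.57, -1.63, -2.46 and -2.71. Number 1 gave the smallest difference in each of these 5 lists. Bone 1 had the smallest share of neutrophil lineage cells among the bone samples and brain 1 the largest share of precursors outside bone, and their part in this was not tested.

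The 3 organs differed in how far they stood from bone. Lung stood farthest, with 3323 genes called (25.4%), 1754 higher in bone (13.4%) and 1569 lower (12%), then liver with 1026 (7.83%), 561 of them higher in bone (4.28%) and 465 lower (3.55%), and brain had 0, with 953 genes (7.28%) at an unadjusted p under 0.05 by edgeR, 164 called by DESeq2 and 39 called by edgeR with the replicate block. Against lung the median of mitosis genes was 4.08 (22 of 22 higher) and of primary granule genes 3.98, while NF-kB genes were at -2.36 (25 of 28 lower) and T and NK effector genes at -2.41 (14 of 20 lower). Against liver they were 2.35 (21 higher) and 2.85 (5 higher) for mitosis and primary granules, -1.53 (10 lower) for NF-kB and -2.12 (10 of 10 lower) for MHC class II. Against brain, medians were 1.05 for mitosis, 0.77 for primary granules, -1.17 for NF-kB, -1.62 for immediate early and -1.34 for MHC class II genes, with none called. These comparisons share the bone samples, and differences between them were not tested.

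Leaving out brain libraries 1 and 4, a choice made after their values were seen, 1265 of 13522 genes (9.36%) were called between bone and brain, 721 (5.33%) higher and 544 (4.02%) lower. Without them, 20 mitosis genes (median 2.64), 19 replication genes (2.13) and 2 primary granule genes (2.95) were higher. Immediate early (14 genes, -2.05), NF-kB (12 genes, -1.59) and MHC class II genes (5 genes, -1.79) were lower. The comparison with the mean of the 3 organs rose to 3972 calls (29.4%), with log2 differences of 4.41 for Elane, 3.88 for Camp, 3.52 for Cebpe, 3.21 for Nusap1, 3.17 for Ccnb1, 3.27 for Rrm2 and -3.61 for Cxcl2. The counts against single organs also moved with single libraries. Liver calls were 97 without liver 2, 126 without liver 3, 542 without liver 1, 1559 without brain 2, and 2546, 177, 112 and 99 without bone 1, 2, 3 and 4. Lung calls were 1650 without bone 4, 1693 without bone 3 and 1994 without lung 1. Brain calls were 32 without brain 1, 8 without brain 4, 2 without liver 1 and 1 without lung 3.

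**Figure D3:**
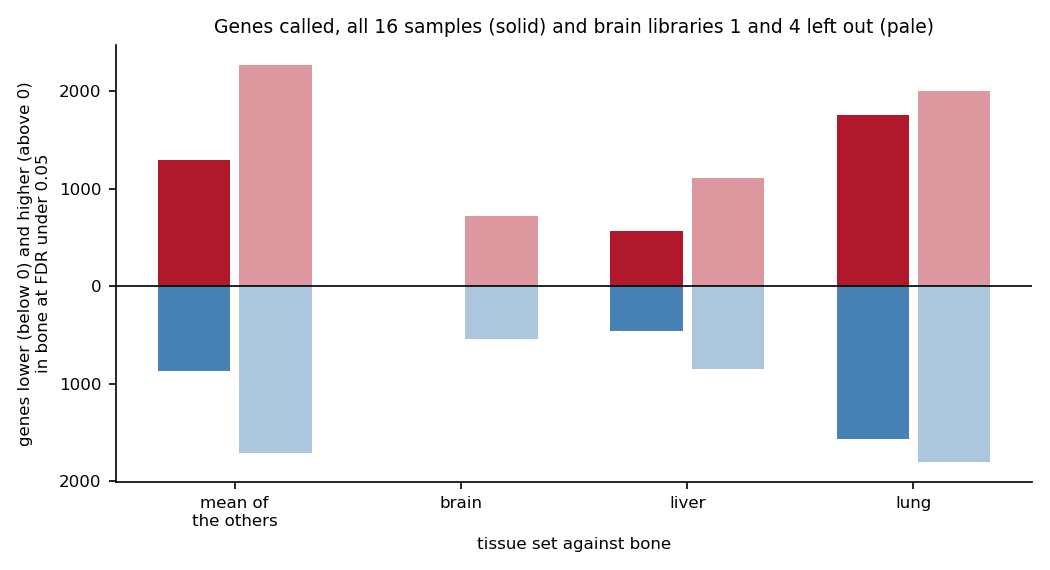
Number of genes called higher (up) and lower (down) in bone against the mean of the other organs and against brain, liver and lung singly, with all 16 samples (solid) and with brain libraries 1 and 4 left out (pale). Bone against brain goes from 0 calls to 1265, and bone against the mean from 2166 to 3972.

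Within the neutrophil lineage, division and primary granule genes were higher in bone and NF-kB and immediate early genes lower. Compared cell class by cell class, so that shares of other lineages no longer enter, bone neutrophil cells held more mitosis (21 of 22), replication (21 of 22) and primary granule (7 of 9, with Srgn lower) transcripts and less of NF-kB (24 of 28), immediate early (20 of 22, with 1 higher) and tertiary granule genes (11 of 17). By single organ, bone against lung gave 21 mitosis, 22 replication and 8 primary granule genes higher, against liver 3, 0 and 0, and against brain no gene of any list was called. NF-kB genes were lower in 27 of 28 against lung and 22 against liver, and immediate early genes in 17 of 22 against each. Of 9 MHC class II genes tested, 1 was higher and none lower (median -0.48). In all, 4714 of 10411 genes (45.3%) were called, 2713 (26.1%) higher and 2001 (19.2%) lower, with a median over all genes of 0.09. Without bone 3 the count was 2653, without brain 1 and 4 it was 5943 of 10638, and with cells thinned to 1000 UMIs it was 1339. In 68 genes (0.653%) every bone sample lay above all others, and in 36 (0.346%) below. Different clusters held most of this class in different organs: in bone clusters 13 (32.7%) and 10 (27.3%), in lung clusters 11 (53.3%) and 15 (33.5%), in liver 11 (39.0%) and 15 (28.9%), in brain 18 (26.6%) and 13 (21.8%). Stage and level within a stage are therefore mixed in this comparison, and the next one takes mature clusters alone.

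In the lineage, Cdk1 was at 79.3, 86.7, 80.3 and 86.7 CPM in bone and at 1.72, a median of 22.0 and 78.1 (brain 1) elsewhere, log2 2.26 ± 0.29 (SE, edgeR adjusted p = 6.79e-04). The 4 bone samples lay close together and above all others, with brain 1 just below. Ube2c was at 203.8, 230.7, 231.3 and 284.2 CPM against 2.86 (lung 3), 67.2 and 166.7 (brain 1), log2 2.44 ± 0.31 (SE, edgeR adjusted p = 6.79e-04), again without overlap. Elane and Camp were higher by 2.46 and 1.89. Without brain 1 and 4 the differences were 2.50 for Cdk1, 2.64 for Ube2c, 3.15 for Elane and 2.37 for Camp. G0s2, which inhibits the lipase that breaks down stored fat, was at 339.4, 335.7, 174.8 and 236.4 CPM against 421.1 (brain 1), 2515 and 7439 (lung 1), 9.45 times lower without overlap (log2 -3.24 ± 0.38 SE, edgeR adjusted p = 6.79e-04). Cxcl2 was at 432.3, 643.5, 381.8 and 474.2 CPM against 390.7 (brain 1), 18044 and 28653 (lung 2), 29.3 times lower (log2 -4.87 ± 0.69 SE, edgeR adjusted p = 6.79e-04), with only brain 1 inside the bone range. Plk2, a stress-responsive kinase, was lower by -3.90, Osm, an inflammatory cytokine, by -2.98 and Cebpb by -2.40. Of late maturation genes, Trem1 (-2.66), Csf3r, the receptor for the granulocyte growth factor (-2.17), and Cxcr2, the receptor for Cxcl2 (-1.53), were lower. Of 12 stem and progenitor genes tested (median 0.80), Myb (2.13) and Cdk6 (1.36) were higher and Kit (-1.66) lower. As a measure of free RNA, in counts per 1e6 of a class's total without TMM scaling, Camp was at 78.1 to 206.9 in T cells of bone and at 83.9 to 170.2 in T cells of the other organs. G0s2 in T cells was at 8.57 to 109.9 on the same scale.

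Among mature neutrophils alone, NF-kB and immediate early genes were again lower in bone, while the mitosis and replication genes that could be tested did not pass. Of granule genes, 1 primary gene was higher and 1 lower (Srgn), 1 of 13 secondary genes was higher, and of 17 tertiary and late maturation genes 2 were higher and 1 lower (Trem1), with a median of 0.10. By cluster, bone and the other organs still differed, since mature clusters 9 and 10 were 88.8% and 89.6% bone cells and cluster 11 was 57.2% lung cells and 2.20% bone cells. Of 7797 genes, 494 (6.34%) were called, 194 (2.49%) higher and 300 (3.85%) lower, with a median of 0.04. NF-kB genes were lower in 17 of 28 (median -1.67) and immediate early genes in 14 of 22 (median -1.36), while 0 of 4 replication and 0 of 9 mitosis genes that could be tested passed. Elane (-0.04), Camp (-0.43), Cxcr2 (0.15), Csf3r (-0.41) and Slpi (-0.08) did not pass. Cxcl2 was at 1854, 2987, 2339 and 2125 CPM in bone and at 5547 (brain 1), a median of 21290 and 30194 (liver 3) elsewhere, 7.82 times lower (log2 -2.97 ± 0.24 SE, edgeR adjusted p = 6.63e-07). G0s2 was at 855.5, 825.4, 395.5 and 440.4 CPM against 1731 (brain 3), 3528 and 5930, log2 -2.40 ± 0.24 (SE, edgeR adjusted p = 1.27e-05). Nfkbia was at 484.6, 461.5, 420.9 and 315.2 CPM against 791.7 (brain 1), 1705 and 3054 (lung 1), log2 -2.03 ± 0.21 (SE, edgeR adjusted p = 1.27e-05). In all 3 genes no bone sample reached any other sample, brain 1 and 4 included. Ccrl2 (-2.92), Klf2 (-1.87), Ier3 (-1.49), Nfil3 (-1.34), Cebpb (-1.28), Trem1 (-1.24), Srgn (-1.05) and Slc2a1, a glucose transporter (-0.94), were also lower without overlap. Groups did not overlap in 22 genes above (0.282%) and 71 below (0.911%). Cxcl2, G0s2, Acod1 and Il1b are among the markers that named the mature class and lead cluster 11, so these genes took part in choosing the cells.

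**Figure D4:**
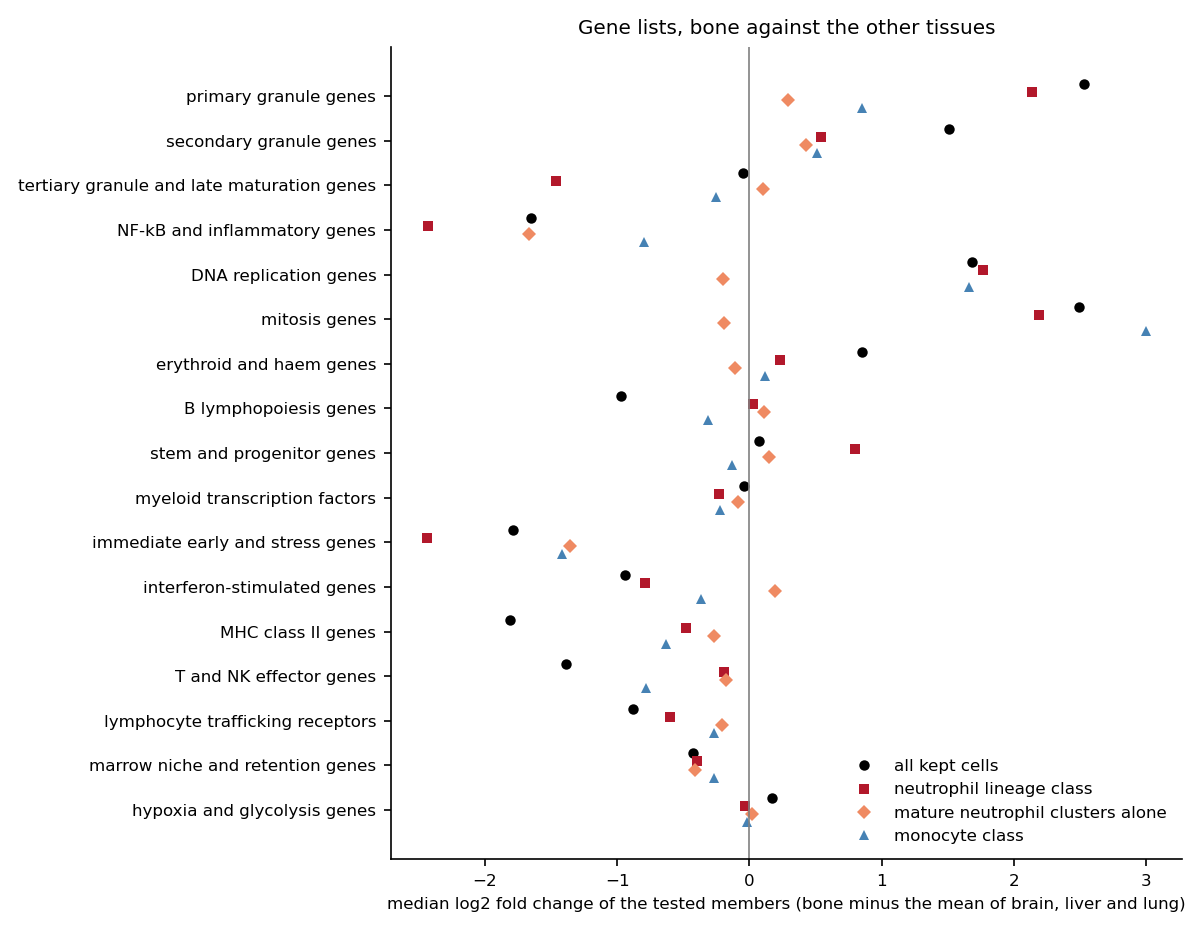
Median log2 difference between bone and the other organs (x) of 17 gene lists (y), for all kept cells, the neutrophil lineage, mature neutrophil clusters alone and monocytes. NF-kB genes are at -1.65, -2.43, -1.67 and -0.80 in the 4 fits, and mitosis genes at 2.49, 2.19 and 3.0 in all cells, the lineage and monocytes.

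Bone monocytes also held more division transcripts. All 22 mitosis genes (median 3.0) and 15 of 22 replication genes (1.66) were higher, and 11 of 21 immediate early genes (-1.42) and 3 of 28 NF-kB genes (-0.80: Ccl3, Socs3 and Osm) were lower, while 0 of 10 MHC class II genes passed (-0.63). By edgeR, 385 of 9850 genes (3.91%) were called, 290 (2.94%) higher and 95 (0.964%) lower. Without bone 4 the count was 167, without bone 3 it was 193, without brain 1 and 4 it was 803, and with the replicate block it was 1049. With cells thinned to 1000 UMIs it was 26, and of the called genes chosen by the naming rule 4 kept the call, 16 lost it and 1 changed sign. Bone lay above every other sample in 42 genes (0.426%) and below in 23 (0.234%). Nusap1 was at 25.4, 41.6, 66.8 and 113.6 CPM in bone monocytes and at 0.330, a median of 2.11 and 25.1 (brain 1) elsewhere, 19.6-fold higher (log2 4.29 ± 0.44 SE, edgeR adjusted p = 8.36e-05). Kif11, a spindle motor, was at 17.6, 26.9, 36.0 and 69.3 CPM against 0.330, 2.14 and 14.4 (brain 1), 12.4-fold higher (log2 3.63 ± 0.35 SE, edgeR adjusted p = 8.18e-05). Both genes were above every other sample in each bone sample, and among the bone samples both were lowest in bone 1 and highest in bone 4, the sample with the fewest monocytes by share. Myb (1.37) and Nfe2 (0.60) were higher. Btg2 was at 309.4, 234.3, 184.1 and 233.9 CPM against 380.5 (brain 4), 543.7 and 790.1, 2.35 times lower without overlap (log2 -1.23 ± 0.19 SE, edgeR adjusted p = 9.30e-04). Jund (-1.42), Klf6 (-0.72), Pmaip1, a cell death gene (-1.73), and Atf3 (-2.61) were lower without overlap as well. Cluster 1 held 60.6% of bone monocytes and 1.49% of lung monocytes, and cluster 2 held 22.0% and 76.9%. Against single organs the mitosis median was 4.24 (lung), 3.77 (liver) and 1.35 (brain, none called), and the calls over all genes were 736 (7.47%), 259 (2.63%) and 1 (0.0102%). Ngp, a secondary granule gene, was at 522.7 to 2850 in bone monocytes, 717.2 to 3000 in brain, 134.1 to 1623 in liver and 96.0 to 155.0 in lung, in counts per 1e6 without TMM scaling, and the part of granulocyte RNA in this class was not tested. With the 5% of cells of highest doublet score removed from each sample, 352 genes were called in monocytes.

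In T cells few genes passed in the main fit, and those higher in bone included Klrd1, Klra6 and Klre1, receptor genes known from NK cells. Of the 20 T and NK effector genes, Klrd1 and Il2rb were higher (median 0.54). Of 6717 genes, 20 (0.298%) were called by edgeR, 13 (0.194%) higher and 7 (0.104%) lower, and bone lay above every other sample in 22 genes (0.328%) and below in 32 (0.476%). Klrd1, a shared chain of NK receptors, was at 283.6, 462.2, 429.5 and 412.9 CPM in bone T cells and at 80.5, a median of 158.3 and 210.3 (lung 2) elsewhere, 2.76-fold higher (log2 1.46 ± 0.21 SE, edgeR adjusted p = 0.00461). Klra6, an NK receptor of a family with near-identical members, was at 40.9, 25.2, 21.5 and 25.5 CPM against 0, 3.72 and 9.77, log2 2.90 ± 0.44 (SE, edgeR adjusted p = 0.00461). Every bone sample lay above every other sample in both genes. Klre1 (2.26), Ly6c2, a surface protein of memory T cells (1.75), Fcer1g (1.63), Cd7 (1.28), Hvcn1 (1.11) and Il2rb, a cytokine receptor chain of effector and NK cells (0.98), were higher, as were Rnf130, Tm6sf1, Gm2682, Fam189b and Evl by 0.65 to 1.11. Lower were Icos, a costimulatory receptor (61.6, 81.9, 116.0 and 71.4 CPM in bone against 66.1, 191.7 and 339.8, log2 -1.28), Btg2 (-0.99), Tmem64 (-1.87), Uhrf2 (-0.84), Pxdc1 (-2.72), Ltb4r1 (-2.40) and Mmp25 (-2.28). Mmp25 is also in the late neutrophil maturation list, and the part of free neutrophil RNA in it was not tested. Different clusters held T cells: cluster 24, led by Gzmk, Ccl5 and Eomes, held 44.3% of bone and 21.4% of lung T cells, and cluster 5, led by Rora, Icos and Il7r, held 13% and 46.0%. The part of this mix in the T cell result was not tested. The count was 1 without bone 4, 5, 6 and 9 without bone 1, 2 and 3, 38 without brain 1 and 32 without liver 1, and 10 with cells thinned to 1000 UMIs. It was 60 without brain 1 and 4, 66 with no filter, 80 with DESeq2 and 194 with the replicate block.

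B cells gave 0 calls of 6689 genes by edgeR (0%), with 273 genes (4.08%) at an unadjusted p under 0.05, 3 called by DESeq2 and 46 called by edgeR with the replicate block. Their immediate early list had a median of -0.71 with 0 of 22 called. In NK cells, fitted on 2 bone, 2 brain, 4 liver and 3 lung samples with at least 20 NK cells, 0 of 5042 genes were called by edgeR, with 204 (4.05%) at an unadjusted p under 0.05. The immediate early median there was -0.76 with 0 of 20 called, and in T cells it was -0.99 with 1 of 21 called. In every class fitted the median of this list was below 0, whereas its calls came from the myeloid classes and from Btg2 in T cells.

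**Figure D5:**
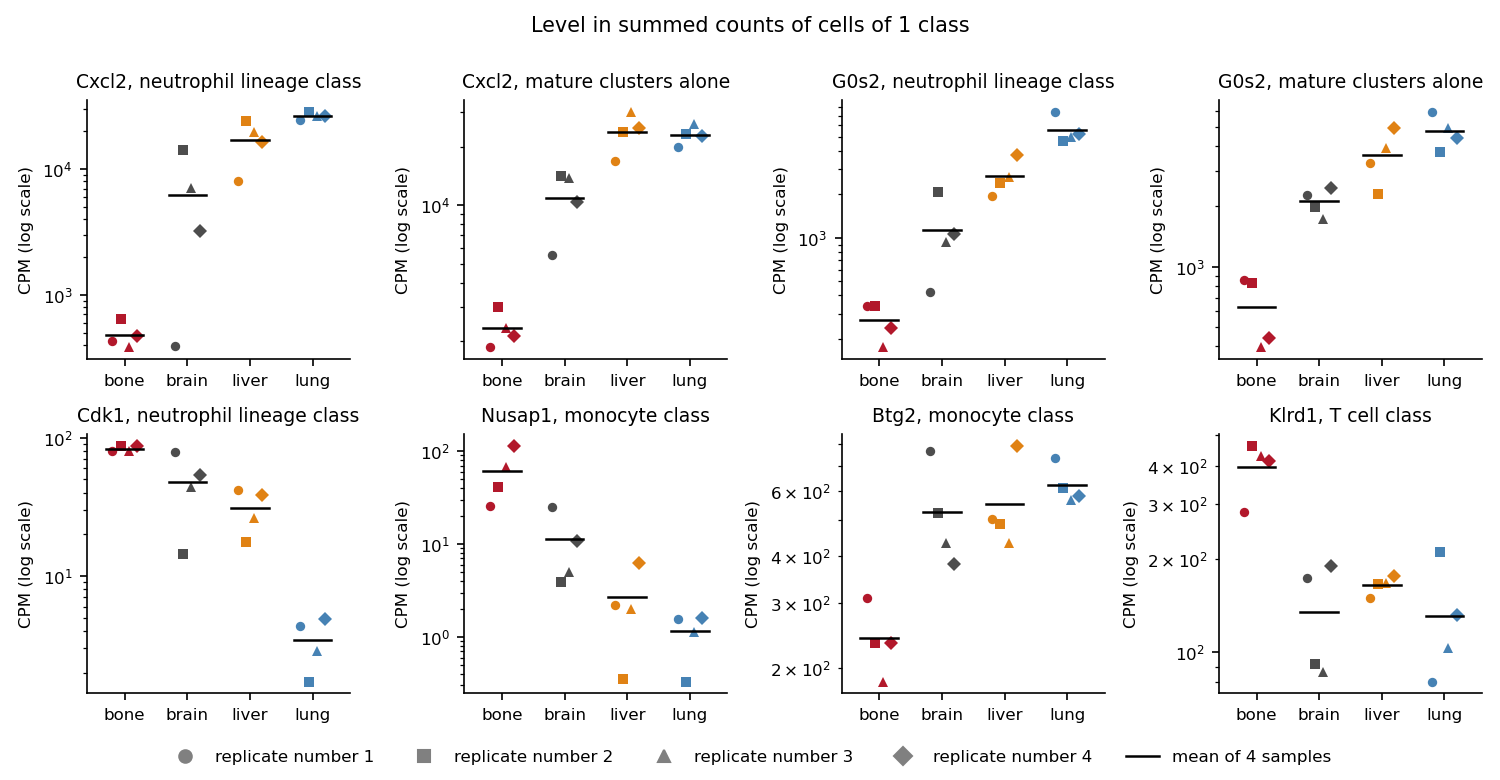
Level in CPM on a log axis (y) within a class for each sample by organ (x), with a bar at the mean, for Cxcl2 and G0s2 in the neutrophil lineage and in mature clusters alone, Cdk1 in the lineage, Nusap1 and Btg2 in monocytes and Klrd1 in T cells. In mature clusters the 4 bone samples sit at 1854 to 2987 CPM for Cxcl2, below the lowest other sample at 5547.

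The contrast of bone with the other organs was also fitted in the tagged cells, 16 biotin positive samples of the same design, to ask whether it depended on the tag. By edgeR, 0 of 13963 genes (0%) differed between the 2 sorts, with 1050 (7.52%) at an unadjusted p under 0.05, 3 called by DESeq2 and 11 called by edgeR with the replicate block. The gene with the smallest p was Kank3, with a log2 difference of -0.04 in untagged and -1.91 in tagged cells (difference 1.87, edgeR adjusted p = 0.328), followed by Sept10, Camk1, Ccr3 and Hspa12a (adjusted p = 0.531 each). In that joint fit, 1306 genes (9.35%) were called in untagged cells and 5453 (39.1%) in tagged cells, counts that were not compared by a test beyond the difference above. Tagged cells gave list medians of 2.38 for mitosis, 3.88 for primary granule, -1.65 for NF-kB, -1.65 for immediate early and -1.33 for MHC class II genes. A difference between the sorts that misses the threshold does not show that the contrasts were alike.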

How the data were processed

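Each sample's matrix was deposited as whole, unnormalised UMI counts. The authors made it with cellranger 6.1.2, per the file headers (7.1.0 for the pooled sample, not used here); the genome was mm10 and the tools Cell Ranger and Seurat, per the submitters' processing notes. Settings of the aligner were not given in the sources used here. CellPlex tags, 3' libraries and the sort are per the labels' protocols.

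Cells with at least 500 gene UMIs, 200 genes and at most 15% mitochondrial UMIs were kept and counts summed per sample, or per sample and class (at least 20 cells). The sums were tested with edgeR 4.0.16 (R 4.3.3; quasi-likelihood, TMM, filterByExpr, robust), with the 4 organs as groups and the contrast giving brain, liver and lung equal weight, and Benjamini-Hochberg adjusted p-values under 0.05 were called. CPM were taken over each sample's TMM-scaled sum. Cells were clustered with scanpy 1.11.5 (2000 variable genes, 30 components, 15 neighbours, Leiden resolution 1.0) with alternatives at resolution 0.5 and 2.0. A cluster took the name of the marker list with most genes among its 100 leading genes, if at least 3. It stayed unnamed where another list had more among the first 10, or as many there and at least 50% of the best list's total. Scrublet called 629 doublets (1.65%); none were removed in the main results. Shares of cells were compared by an exact two-sided permutation test over samples.

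Genes were named by rule: up to 12 highest and 12 lowest called genes with a mean of at least 20 CPM and groups that do not overlap (5 and 5 within a class), up to 4 members per list with the smallest p, members needed to account for a list, and 5 genes for the sorts. The 20 genes called in T cells and the genes of other lists were named after their values were seen. The members, the 17 gene lists and the markers were chosen with earlier results of these data known. On simulated counts for the comparison over all kept cells (12872 genes), 44.9% of 98 genes changed by 2-fold and 92.9% of 98 changed by 8-fold were called, with 9 false calls. The simulated samples varied independently, whereas real same-number samples correlated at a median of 0.521, so these rates may not hold for the real samples. Alternatives were DESeq2 1.42.0, other size factors and filters, thinned cells, samples left out and a replicate block. Samples of one number carry one shared set of 8 multiplexing tags in their files. Some genes of the lists are not reported here.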

Additional observations from a re-analysis of the deposited data

Results flagged for a closer look

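Values were looked at in 192 groups of 4 samples, and in 7 of them the highest or lowest sample stood apart from the other 3 by more than Dixon's critical value, where chance gives about 1 in 20. Granulocyte precursors took 0.487% of cells in lung 4 and 0.0397% to 0.0724% in the other lung samples. NK cells took 15% in lung 1 and 0.754% to 2.61% in the other lung samples. Cebpe was at 105.3 CPM in liver 4 against at most 17.4 in the other liver samples, and at 21.4 in lung 4 against 5.15 to 7.85 in the other lung samples. Hba-a1 was at 53.7 CPM in bone 2 against 0.174 to 0.873 in the other bone samples, and at 18.6 in liver 2 against 0 to 0.339 in the other liver samples. Klra6 was at 0 CPM in T cells of liver 4 against 3.50 to 4.12 in the other liver samples.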

How the results depend on the processing

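Bone against the mean gave 2129 calls with RLE size factors, 1775 with no filter, 1638 with a stricter filter, 3325 with DESeq2 (1588 higher, 1737 lower) and 438 with cells thinned to 1000 UMIs. Bone against brain gave 3 with RLE, 3 with no filter, 164 with DESeq2, 2 thinned and 2 without likely doublets; against liver 510 with the stricter filter, 2110 with DESeq2, 173 thinned and 1957 without brain 1 and 4; against lung 667 thinned. Neutrophils gave 1339 thinned, 494 as mature clusters, 0 against brain and 738 against liver; monocytes 26 thinned, 803 without brain 1 and 4, 1 against brain and 736 against lung. T cells gave 66 with no filter, 80 with DESeq2, 10 thinned and 60 without brain 1 and 4, B cells 28 with no filter and 3 with DESeq2, NK cells 11 with no filter, and the sorts 3 with DESeq2. Without brain 1 and 4, bone against the mean gave 3972 and against brain 1265. The precursor difference was 11.4 points over named cells alone (adjusted p = 0.0659), and the unnamed one -1.69 at resolution 2.0 (adjusted p = 0.514). Thinning leaves fewer UMIs and leaves out cells under 1000 UMIs, and the cause of the other moves was not tested.

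The labels give samples of one number no shared source, while their files list one set of tags. Same-number samples of different organs correlated at -0.038 to 0.688 (22 of 24 pairs over 0.1), and different numbers at a median of -0.151. Of 16 samples, 14 correlated best with their own number. No cell barcode was shared within a number, against 171 over the 96 pairs of different numbers. The main fits leave the replicate number out. With the block there were 4849 calls against the mean, 39 against brain, 3192 against liver, 5713 against lung, 1049 in monocytes, 46 in B cells, 194 in T cells and 11 between sorts. Shares under the block were 11.4 points for precursors (adjusted p = 0.0820), 16.8 for immature cells (0.0703) and -6.89 for unnamed cells (0.0703).

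Leaving out one sample gave 366 to 3429 calls against the mean, 0 to 32 against brain, 97 to 2546 against liver, 1650 to 4063 against lung, 2653 to 5544 in neutrophils, 167 to 513 in monocytes, 0 to 2 in B cells, 1 to 38 in T cells and 0 to 1 in NK cells. Share differences ranged over 15.5 to 36.3 points for the lineage, 9.27 to 14.0 for precursors, 14.2 to 21.3 for immature, -9.11 to 0.978 for mature cells, -7.53 to 1.15 for monocytes, -0.0931 to 0.250 for plasma cells and -7.86 to -6.23 for unnamed cells. Signs turned for Hba-a1 in all kept cells (-1.16 without bone 2, to 5.23 without liver 2), Hbb-bt (-0.32 without bone 2, to 2.83 without bone 4), Cxcl12 (-3.06 without bone 3, to 2.84 without bone 1), Anapc1 in thinned monocytes (-0.08), and, in mature clusters alone, Ube2c (-0.34), Fcnb (-0.18), Camp (-0.43), Elane (-0.04), Ccr2 (-0.34), Oasl1 (0.05), Cxcr2 (0.15), Tfrc (-0.76) and Slc25a37 (0.23). Of the alternative values of called named genes, 1471 in all kept cells, 1465 in neutrophils, 658 in monocytes and 413 in T cells kept the direction and the call, and 171, 76, 87 and 102 lost the call. The losses were uneven: in all kept cells 33 of 61 genes lost it without bone 3, 33 without bone 4 and 26 when thinned, and in T cells 19 of 20 lost it without bone 4. Of 17 named genes given as not passing in all kept cells, 13 passed with the block, 13 with DESeq2, 10 without brain 1 and 4 and 10 without bone 1. NK cells with at least 50 cells a sample again gave 0 calls by edgeR (119 genes at an unadjusted p under 0.05), with a lone bone sample assumed to vary like the other groups.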

Other observations

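Among cells that no marker list named, cluster 7, led by C1q complement and MHC class II genes, held 1506 cells and took 1.03% ± 0.528 of bone cells (SD, n = 4), 9.15% ± 5.86 of brain, 5.59% ± 2.45 of liver and 3.15% ± 1.48 of lung. Cluster 17, led by genes that include Spp1 and Pf4, held 508 cells and took 0.0770% of bone, 0.207% of brain, 3.79% of liver and 1.77% of lung. Cluster 20, led by Vpreb3 and Rag1, genes of B cell precursors, held 335 cells and took 3.71%, 0.156%, 1.80% and 0.285% of bone 1 to 4, 6.69% of brain 1 and 0.0687% to 0.638% of the other brain samples, while liver and lung reached 0.193% and 0.217%. Cluster 12, led by Ccl3 and Cxcl3, took 5.78% of lung 4 and at most 0.946% of any other sample. These clusters were not compared by a test.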
